A study of Mus musculus with 6 samples.

Results

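The mitochondrially encoded genes of mouse retinal pigment epithelium (RPE) are described here, with mice lacking Abca4 (Abca4-/-, called Abca4KO) set against wild-type mice (WT). They were chosen as every row of the deposited count table whose symbol starts with mt-, which gave 37 of 54532 genes. All 37 lie on the mitochondrial chromosome, and no other gene of the table does. They are 13 mRNAs, 2 ribosomal RNAs (rRNAs) and 22 transfer RNAs (tRNAs). The RPE is the pigmented cell layer that supports the photoreceptors and digests the outer segment tips they shed. Total RNA from RPE was sequenced in bulk from 3 WT mice of the strain 129S1/SvlmJ and 3 Abca4-/- mice of the Jackson line Abca4tm1Ght/J. Both lines carried the Leu450 form of Rpe65, lived in cyclic light on a standard diet and were sampled 5 h after light onset. The line and the genotype change together, so an effect of the Abca4 allele and one of the line, its mitochondrial genome included, cannot be told apart. Their age is not stated in those sources that were used.

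Mitochondrial DNA is a small circle that is transcribed from both strands into long precursor RNAs. The tRNA genes sit between the mRNA and rRNA genes, and the precursors are cut at the tRNAs to release the other transcripts. The 13 mRNAs encode subunits of respiratory complexes I, III, IV and of ATP synthase (complex V), while the rRNAs and tRNAs serve the mitochondrion's own ribosomes. Every protein that copies, transcribes, cuts or translates this genome is encoded in the nucleus. The RPE is known as a tissue that relies on mitochondrial respiration and leaves much of the blood's glucose to the photoreceptors.

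Of the 37 genes, 28 are annotated on one strand, and 9 are on the other: mt-Nd6, a complex I subunit, and 8 tRNAs. The 5 tRNAs with the highest counts all belonged to those 8. Since strand use is not given, reads of the opposite strand cannot be told from those of these 5. Their sequences are shown because they held the most counts among the tRNAs. Each is read 5′ to 3′ on its own strand, with the anticodon in capitals. They come from GENCODE M21 on the build mm10 and lie, in the order printed, at chrMT:15356-15422, chrMT:14071-14139, chrMT:5192-5257, chrMT:5089-5159 and chrMT:5260-5326, all on the minus strand.
mt-Tp: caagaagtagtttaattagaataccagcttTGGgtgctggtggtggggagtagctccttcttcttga
mt-Te: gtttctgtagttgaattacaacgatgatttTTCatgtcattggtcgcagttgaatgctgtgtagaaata
mt-Tc: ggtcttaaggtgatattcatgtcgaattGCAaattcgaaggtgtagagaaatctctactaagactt
mt-Tn: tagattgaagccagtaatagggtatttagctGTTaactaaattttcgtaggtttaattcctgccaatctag
mt-Ty: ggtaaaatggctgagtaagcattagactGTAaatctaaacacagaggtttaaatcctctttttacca
These are the tRNAs for proline, glutamate, cysteine, asparagine and tyrosine. Of the 8 tRNAs on the minus strand 5 had enough counts to be tested, and of the 14 on the plus strand 5 did.

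A second feature of the sequences bears on the counts. Fragments of mitochondrial DNA also lie in the nuclear genome, and 7 mitochondrial mRNAs had a copy there of at least 99% identity among the annotated transcripts. All 7 copies lay on the minus strand of chromosome 1 within chr1:24611535-24616197. Of these, 5 matched every aligned base of their gene, and the other 2 each differed by 1 base. The differing bases are shown in capitals, as the letters by which a read from these stretches could be told from its copy, in stretches at chrMT:6390-6418, chr1:24616160-24616188, chrMT:9459-9486 and chr1:24613092-24613119.
mt-Co1: ggaAttgttttatccaactcatcccttga
Gm29216: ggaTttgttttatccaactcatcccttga
mt-Nd3: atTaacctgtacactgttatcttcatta
Gm28438: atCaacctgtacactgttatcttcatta
The substitutions are A1066T between mt-Co1 and Gm29216 and T3C between mt-Nd3 and Gm28438, with positions counted from 1 at the first base of the mitochondrial gene. How reads that matched both a gene and its copy were counted is not stated in those sources that were used.

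The libraries held 17047286 to 19841307 counts. At this depth 3 counts equal 0.152 to 0.174 CPM, the unit used here for counts scaled to a common library size. Such limits cover counting error only, since reads carry no molecular identifiers. Abca4, the check of the labels, was at 954, 931 and 967 CPM in the WT libraries and at 32.5, 39.1 and 36.7 CPM in the Abca4KO libraries. Libraries of the same genotype came from separate mice.

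The share of the counts taken by mitochondrial transcripts differed more between mice of a genotype than between the genotypes. It was 7.36%, 7.82% and 5.79% of all counts in WT 1, 2 and 3. It was 7.58%, 8.92% and 6.11% in Abca4KO 1, 2 and 3. The highest library was Abca4KO 2 and the lowest WT 3, and the libraries of the genotypes overlapped. Means were 6.99% ± 1.07 (SD, n = 3) in WT and 7.54% ± 1.41 (SD, n = 3) in Abca4KO, and the difference of 0.546 percentage points gave p = 0.60 by the 2-sided exact permutation test. That test cannot go below 0.10 with 3 libraries against 3. The difference was -0.0554 without WT 3 and -0.146 without Abca4KO 2, so its direction rests on these libraries. The 95% Wilson interval of any 1 library's share was at most 0.0251 percentage points wide, far narrower than the spread between mice. In bulk RNA, fewer cells of a type that is rich in mitochondria and less mitochondrial RNA per cell cannot be told apart.

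**Figure D1:**
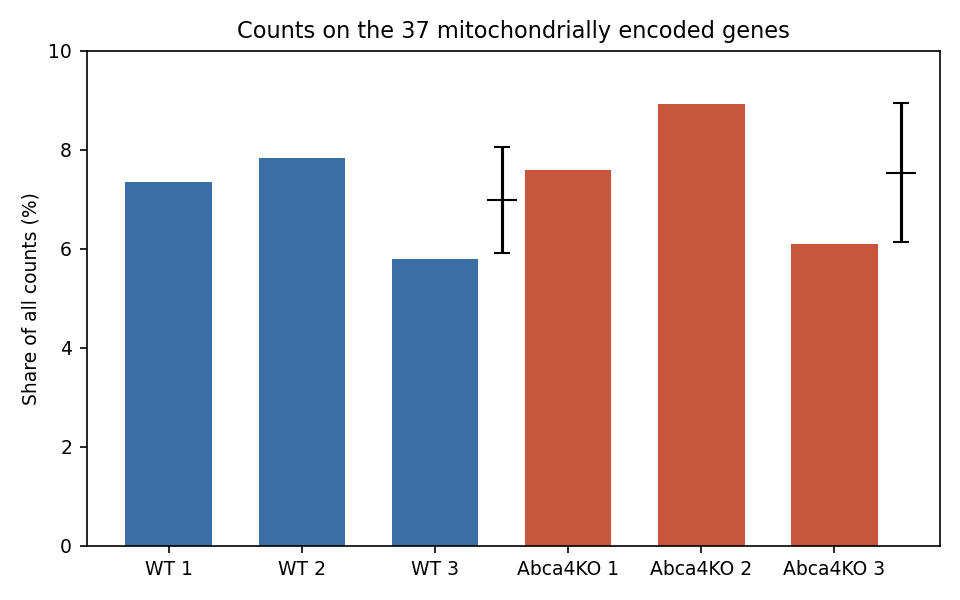
Share of all counts that fell on the 37 mitochondrially encoded genes, in percent, for each of the 6 libraries (1 bar each), with the mean ± SD of each genotype to the right of its bars. Abca4KO 2 is highest at 8.92% and WT 3 lowest at 5.79%, and both genotypes hold high and low libraries.

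The mRNAs made up nearly all of this share. They took 6.83% ± 1.04 (SD, n = 3) of all counts in WT and 7.36% ± 1.36 (SD, n = 3) in Abca4KO, with an exact permutation p of 0.60. The 2 rRNAs took only 0.140% ± 0.0220 and 0.151% ± 0.0437 (SD, n = 3 each), and the 22 tRNAs 0.0213% ± 0.00436 and 0.0222% ± 0.00434 (SD, n = 3 each). Whether rRNA was removed or polyadenylated RNA selected for the libraries is not stated in those sources that were used.

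Of the 37 genes, 25 had enough counts to be tested: all 13 mRNAs, both rRNAs and 10 tRNAs. When Abca4KO was compared with WT by the quasi-likelihood test of edgeR, none of the 25 had an adjusted p under 0.05, where 0.0461% of all 17340 tested genes did. At an unadjusted p under 0.05, 1 of 25 passed, mt-Atp6, against 7.02% of all genes. For 1 of 25, again mt-Atp6, every library of one genotype lay outside the range of the other, against 12.8% of all genes. DESeq2 called none and had 2 of 27 at an unadjusted p under 0.05. Fold changes were positive, that is higher in Abca4KO, for 19 of 25 genes (14 of 25 with libraries scaled to the mitochondrial total), against 47.8% of all genes. The 19 were 12 of the 13 mRNAs, both rRNAs and 5 of the 10 tRNAs. The median log2 fold change was 0.13 over the 25 genes and -0.01 over all tested genes. This leaning rested on single libraries: 6 of 13 mRNAs were positive without Abca4KO 2 and 9 of 13 without WT 3. The median of the tested mitochondrial genes was then -0.04 and 0.01. With sample weights in limma-voom, 6 of 13 mRNAs were positive.

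**Figure D2:**
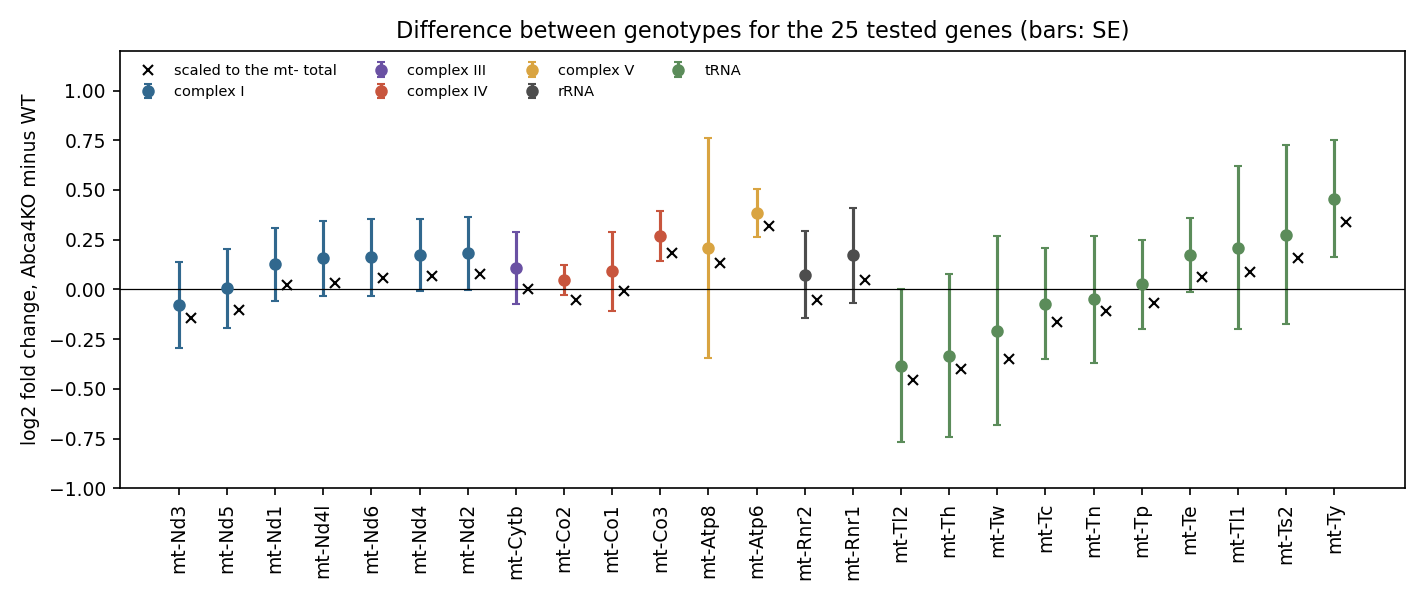
Log2 fold change of Abca4KO over WT with its standard error for the 25 tested mitochondrially encoded genes, coloured by class, with a line at 0 and a cross for the value with libraries scaled to the mitochondrial total. The bars of mt-Atp6 at 0.38, mt-Co3 at 0.27 and mt-Ty at 0.46 lie wholly above 0, and the crosses lie below the points.

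Complex I, the entry point for electrons from NADH, has 7 subunits encoded in mitochondrial DNA, and no gene of the 7 passed the test. Its most counted mRNA was mt-Nd5, a subunit of the proton-pumping membrane arm, at 10246, 11098 and 7886 CPM in WT and 10101, 11742 and 7486 CPM in Abca4KO. mt-Nd1, the subunit at the site where ubiquinone binds, was at 7681, 8492 and 6116 CPM in WT and 7841, 9868 and 6608 CPM in Abca4KO. In both mRNAs the spread between mice of a genotype exceeded the gap between the means: the log2 fold changes were 0.00 ± 0.20 and 0.13 ± 0.18 (SE). mt-Nd4, a second antiporter-like subunit of the membrane arm, was at 6591, 6943 and 5158 CPM in WT and 6932, 8512 and 5622 CPM in Abca4KO. mt-Nd2, the third of this kind, was at 4403, 4866 and 3514 CPM in WT and 4588, 5970 and 3934 CPM in Abca4KO. Both were highest in Abca4KO 2 and lowest in WT 3, with edgeR adjusted p-values of 0.885 and 0.882. mt-Nd6 was at 3712, 3852 and 2708 CPM in WT and 3685, 4728 and 3082 CPM in Abca4KO. It lies opposite to the other mRNAs, and since strand use is not given, reads of the opposite strand cannot be told from its own. It overlaps mt-Nd5 by 14 bases. The 2 small subunits were far lower, with mt-Nd4l at 23.8, 21.4 and 18.9 CPM in WT and 23.1, 29.9 and 18.4 CPM in Abca4KO. mt-Nd3, at 7.16, 6.49 and 4.95 CPM in WT and 5.78, 5.87 and 5.98 CPM in Abca4KO, was the 1 mRNA with a negative fold change, -0.08 ± 0.21 (SE) on the log2 scale. Genotypes overlapped in all 7 mRNAs.

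Complex III contributes 1 mitochondrial mRNA, mt-Cytb, the cytochrome b that carries electrons from ubiquinol. It was at 13012, 13528 and 10034 CPM in WT and at 13093, 15710 and 10629 CPM in Abca4KO. The same pair of libraries was highest and lowest as for most complex I mRNAs, and the log2 fold change was 0.11 ± 0.18 (SE, edgeR adjusted p = 0.932).

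Complex IV, cytochrome c oxidase, has its 3 core subunits in mitochondrial DNA, and their mRNAs differed widely in level and in spread. mt-Co1, the subunit that holds the oxygen-reducing site, was the most counted mitochondrial gene at 25618, 28751 and 19837 CPM in WT and 26184, 31716 and 21151 CPM in Abca4KO. mt-Co2, which takes electrons from cytochrome c, was at 230.4, 236 and 232 CPM in WT and 229.5, 256 and 236 CPM in Abca4KO. Its highest library stood only 1.12-fold above its lowest, while the ratio lay between 1.57 and 1.75 for the 7 mRNAs above 1000 CPM. mt-Co3, the third core subunit, was at 115, 129 and 94.9 CPM in WT and 134, 148 and 126 CPM in Abca4KO. Abca4KO 3 lay below WT 2, so the genotypes overlapped, and the log2 fold change of 0.27 ± 0.13 (SE) had an edgeR adjusted p of 0.727.

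Complex V, which makes ATP, has 2 subunits encoded here. mt-Atp6, the subunit that forms the proton channel with the rotating ring, was at 141, 161 and 118 CPM in WT and 195, 175 and 178 CPM in Abca4KO. All 3 Abca4KO libraries lay above all 3 WT libraries, with a mean of 183 ± 10.7 CPM against 140.0 ± 21.6 CPM (SD, n = 3 each). The log2 fold change was 0.38 ± 0.12 (SE), and it did not pass the test at an edgeR adjusted p of 0.616. Over the 17 other settings tried that p lay between 0.103 and 1, and the fold change was positive in each. Without Abca4KO 1 its unadjusted p in edgeR was 0.0501, so that none of the 25 genes lay under 0.05. mt-Atp8, the small subunit whose gene overlaps the start of mt-Atp6, was near the floor at 0.575, 0.429 and 0.652 CPM in WT and 0.912, 0.309 and 0.696 CPM in Abca4KO. The 43 shared bases at chrMT:7927-7969 are shown because a read inside them fits both genes, with the start codon of mt-Atp6 in capitals.
mt-Atp8 and mt-Atp6 overlap: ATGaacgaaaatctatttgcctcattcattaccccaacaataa
Both genes lie on the plus strand, so strand would not separate such reads.

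The 2 rRNAs build the large and small subunits of the mitochondrial ribosome. mt-Rnr2, the large one, was at 863, 1064 and 792 CPM in WT and 850.0, 1285 and 724 CPM in Abca4KO. mt-Rnr1, the small one, was at 460.5, 614 and 408 CPM in WT and 505, 753 and 411 CPM in Abca4KO. For both, Abca4KO 2 was highest and WT 2 next. Log2 fold changes were 0.07 ± 0.22 and 0.17 ± 0.24 (SE), with edgeR adjusted p-values of 0.969 and 0.921.

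The 10 tested tRNAs ranged from 0.965 to 154 CPM in single libraries, and none passed the test. mt-Tp was at 122, 150.2 and 88.7 CPM in WT and 114, 154 and 98.9 CPM in Abca4KO. mt-Te was at 58.2, 44.5 and 39.7 CPM in WT and 57.4, 61.2 and 41.9 CPM in Abca4KO. mt-Tc was at 24.4, 20.9 and 12.5 CPM in WT and 16.7, 23.6 and 14.5 CPM in Abca4KO. All 3 overlapped between the genotypes and were lowest in WT 3. mt-Tn was at 5.86, 10.3 and 4.67 CPM in WT and 6.18, 7.83 and 6.09 CPM in Abca4KO. mt-Ty had the smallest p of the tRNAs, at 4.81, 4.66 and 3.26 CPM in WT and 5.78, 7.52 and 4.18 CPM in Abca4KO, with a log2 fold change of 0.46 ± 0.30 (SE, edgeR adjusted p = 0.809). The 5 tested tRNAs of the plus strand were all below 7 CPM in every library. They were mt-Tl1 and mt-Tl2 for leucine, mt-Ts2 for serine, mt-Th for histidine and mt-Tw for tryptophan, with log2 fold changes between -0.38 (mt-Tl2) and 0.27 (mt-Ts2).

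The other 12 tRNAs were too low to test, with at most 12 counts in a library. mt-Td and mt-Tf had 0 counts in all 6 libraries, which allows up to 0.174 CPM in the shallowest. Over all libraries mt-Tq had 41 counts, mt-Ti 37, mt-Tr 14, mt-Tm and mt-Tv 12 each, mt-Ta and mt-Tt 10 each, mt-Tg 2, and mt-Ts1 and mt-Tk 1 each. mt-Ta had 0 counts in each WT library and 3, 3 and 4 in Abca4KO 1, 2 and 3, at the limit of 3 counts. Mature tRNAs are short, and common RNA-seq library preparations keep few of them. mt-Ts1, mt-Td, mt-Tk, mt-Tg and mt-Tr also lie among the mRNAs that match nuclear copies. Nuclear sequence outside annotated transcripts was not searched, so their low counts are uncertain for that reason too. mt-Tf, mt-Tv, mt-Ti, mt-Tq, mt-Tm, mt-Ta and mt-Tt lie elsewhere. The cause of the low counts was not tested.

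The large classes of mRNA took nearly the same shares of the mitochondrial count in all 6 mice. Complex I mRNAs made up 44.4% ± 0.249 of the mitochondrial count in WT and 44.5% ± 0.257 in Abca4KO. Complex IV mRNAs made up 35.7% ± 0.594 and 35.5% ± 0.219, and mt-Cytb of complex III 17.4% ± 0.443 and 17.5% ± 0.202. These 3 groups of mRNAs thus kept their order in both genotypes, complex I before IV before III. The complex IV share was nearly all mt-Co1, which alone took 34.75% (WT 3) to 35.93% (WT 2). Complexes I, IV and V include mRNAs that match nuclear copies, and how shared reads were counted is not stated. Their shares and this order are uncertain for that reason. The rRNAs made up 2.00% ± 0.171 and 1.98% ± 0.226, the tRNAs 0.303% ± 0.0190 and 0.294% ± 0.00766, and mt-Nd6 alone 4.87% ± 0.166 and 5.08% ± 0.125. The complex V share was 0.201% ± 0.00737 in WT and 0.250% ± 0.0527 in Abca4KO, where Abca4KO 2 at 0.193% was below all WT libraries and Abca4KO 1 and 3 were above them (all SD, n = 3). The exact permutation p-values of the 7 shares lay between 0.20 and 1, and all were 1 after Benjamini-Hochberg adjustment over the 7.

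**Figure D3:**
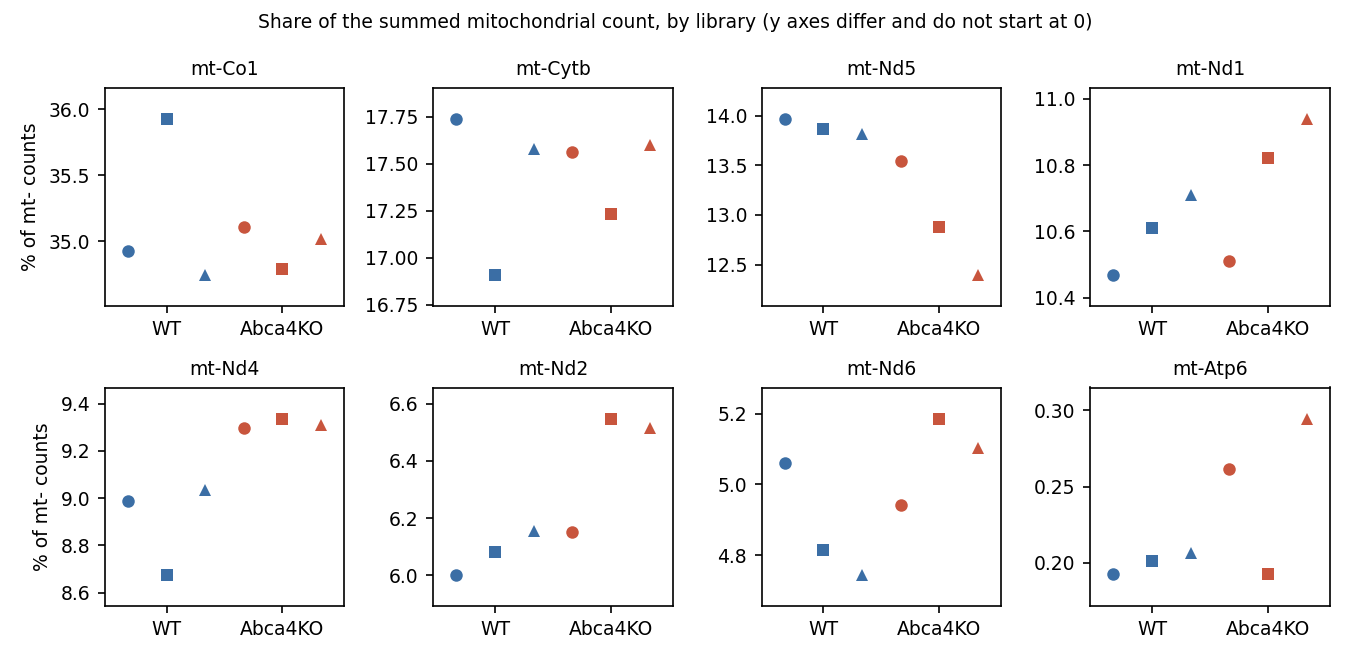
Share of the mitochondrial count, in percent, taken by 8 mRNAs, 1 panel and y axis each, with 1 point per library and the genotypes on the x axis. mt-Nd5 is lower and mt-Nd4 higher in the 3 Abca4KO libraries than in the 3 WT libraries, while the points of the other 6 overlap.

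Within this composition, 3 of the 25 tested genes had shares that did not overlap between the genotypes. Under the usual scaling, an unlike measure, this held for 1 of the 25 and for 12.8% of all genes. Relative to the mitochondrial total 4.42% of all genes did not overlap. Dividing nuclear genes by that total, however, brings its spread between mice into their values. Nothing is therefore read from the count of 3. mt-Nd5 took 13.97%, 13.87% and 13.82% of the mitochondrial count in WT and 13.54%, 12.88% and 12.4% in Abca4KO. mt-Nd4 took 8.99%, 8.68% and 9.04% in WT and 9.30%, 9.34% and 9.31% in Abca4KO. mt-Ty took 0.00656%, 0.00583% and 0.00571% in WT and 0.00775%, 0.00825% and 0.00692% in Abca4KO. So mt-Nd5 was a smaller part, and mt-Nd4 and mt-Ty larger parts, in every Abca4KO library. Shares of the same total are tied to each other, and mt-Nd4 matches a nuclear copy over part of its length. With libraries scaled to the mitochondrial total, edgeR called 0 of the 25 genes, and 0 had an unadjusted p under 0.05. The share of mt-Atp6 was 0.192%, 0.201% and 0.207% in WT and 0.261%, 0.192% and 0.295% in Abca4KO, and so overlapped. That scaling moved the median log2 fold change of all tested genes from -0.01 to -0.10.

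Per length, levels fell steeply from gene to gene, and the 6 mice shared the order of the highest genes. mt-Co1 was highest at a mean of 16533 CPM per kilobase over the 6 libraries, followed by mt-Cytb at 11073, mt-Nd1 at 8117 and mt-Nd6 at 6990. mt-Nd5 at 5351, mt-Nd4 at 4809 and mt-Nd2 at 4379 CPM per kilobase came next. Each of these 7 lay above the next in 6 of 6 libraries, although their ranges over libraries overlapped. Of the 7, mt-Co1 and mt-Nd4 match a nuclear copy over part of their length. How shared reads were counted is not stated, so their places in this order are uncertain. These 7 mRNAs held 96.9% of all mitochondrial counts. After a gap came mt-Tp at 1809 CPM per kilobase, whose range did not overlap that of mt-Nd2, and mt-Te at 732. Both, like mt-Nd6, lie on the minus strand, so reads of the opposite strand cannot be told from their own. The other 8 tested tRNAs lay between 27.2 (mt-Tw) and 284 (mt-Tc) CPM per kilobase. The rRNAs were at 588 (mt-Rnr2) and 550.0 (mt-Rnr1) CPM per kilobase. The 6 remaining mRNAs were all below the rRNAs: mt-Co2 at 346, mt-Atp6 at 237, mt-Co3 at 159, mt-Nd4l at 76.1, mt-Nd3 at 17.4 and mt-Atp8 at 2.92 CPM per kilobase. For 5 of these 6 the search of annotated transcripts found a nuclear copy of at least 99% identity along nearly the whole gene. For mt-Atp8 no annotated transcript met the search limits, although the 43 bases it shares with mt-Atp6 also match Gm10925. mt-Atp8 lies between mt-Co2 and mt-Atp6, whose copies Gm28661 and Gm10925 lie in the same order on the minus strand of chromosome 1. Nuclear sequence outside annotated transcripts was not searched. A match to mt-Atp8 between these copies was therefore not tested, and its level is uncertain too.

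**Figure D4:**
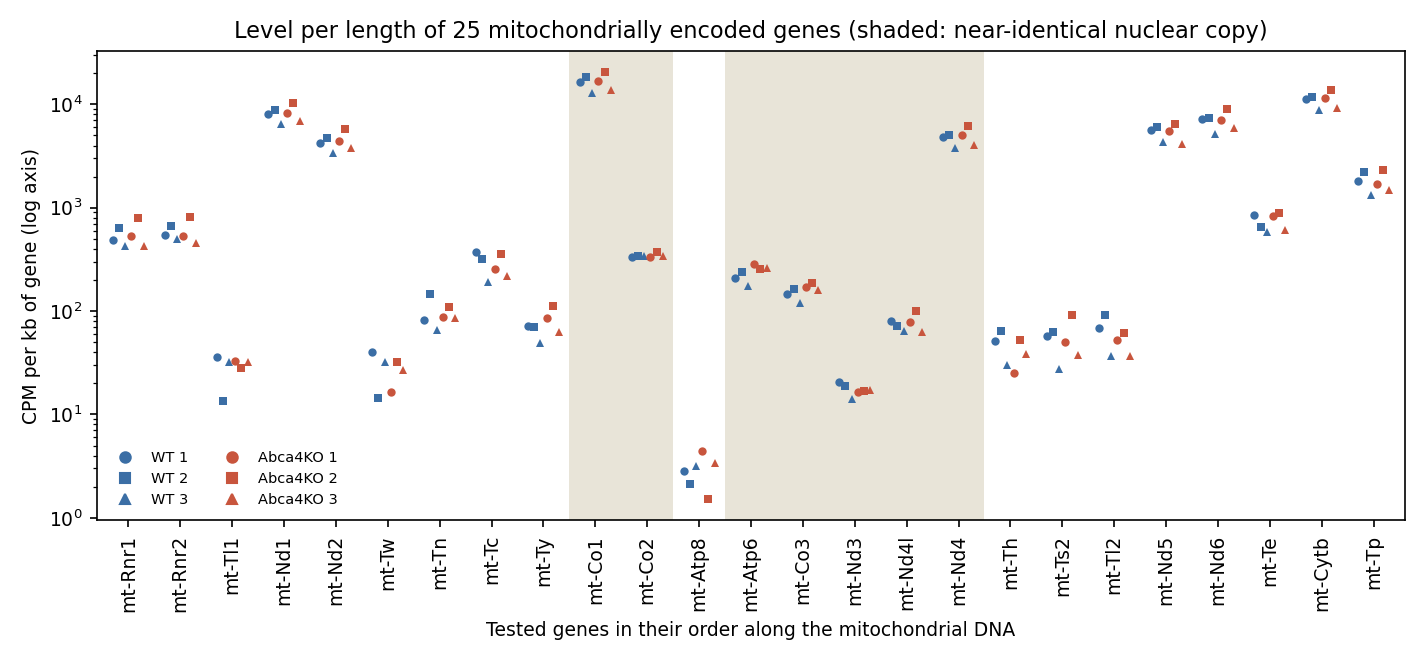
Level of the tested mitochondrially encoded genes in CPM per kilobase of gene, on a log axis, with 1 point per library. Genes are in their order along the mitochondrial DNA, and those with a near-identical nuclear copy among annotated transcripts are shaded. The 7 highest mRNAs lie between 4379 and 16533 on average, and mt-Co2, mt-Atp6, mt-Co3, mt-Nd4l, mt-Nd3 and mt-Atp8 lie at or below 346.

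The nuclear copies held counts of the same order as these low mRNAs. Gm10925, which matches mt-Atp6, had 16385 counts over the 6 libraries, 90.1% of the count of mt-Atp6. Gm28661 had 20306 counts, 76.2% of mt-Co2, and Gm28437 had 10430 counts, 74.2% of mt-Co3. Gm10222 stood at 94.9% of mt-Nd4l with 2426 counts, and Gm28438 with 3936 counts was at 579% of mt-Nd3. The 2 other copies cover only part of their gene and held little beside it. Gm29216 covers 31.3% of mt-Co1 with 0.225% of its counts, and Gm28439 covers 63.6% of mt-Nd4 with 0.836% of its counts. Whether the copies are transcribed or took reads from mitochondrial RNA was not tested, and the levels of mt-Co2, mt-Atp6, mt-Co3, mt-Nd4l and mt-Nd3 are uncertain for this reason. The levels of mt-Co1 and mt-Nd4 are uncertain too over the parts that match a copy. That of mt-Atp8, which lies between mt-Co2 and mt-Atp6, is also uncertain, since the stretch between their copies was not searched. A low count of a copy does not show how shared reads were counted.

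**Figure D5:**
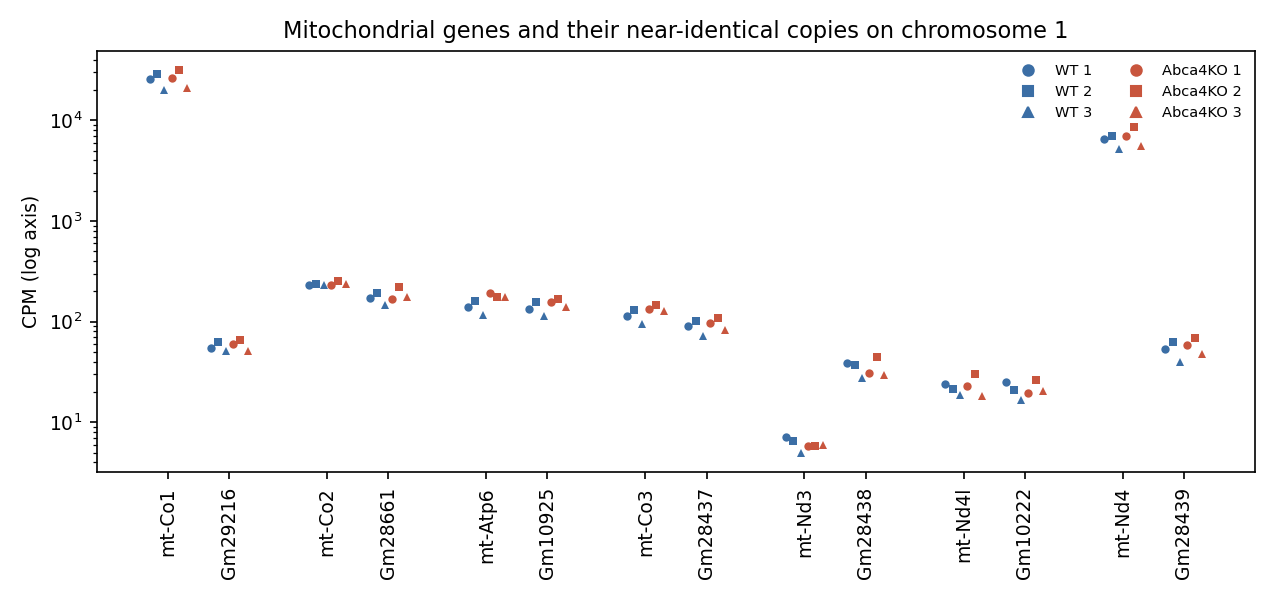
Level in CPM, on a log axis, of 7 mitochondrial mRNAs and, to the right of each, of its nuclear copy of at least 99% identity, with 1 point per library. The copies of mt-Co2, mt-Atp6, mt-Co3 and mt-Nd4l lie close to their gene, that of mt-Nd3 lies above it, and those of mt-Co1 and mt-Nd4 lie far below.

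No copy passed the test, with edgeR adjusted p-values between 0.805 and 0.989, and all 7 overlapped between the genotypes. Gm10925 was at 134.5, 156 and 114 CPM in WT and 156, 169.5 and 141 CPM in Abca4KO. The sum of mt-Atp6 and Gm10925 was 275.5, 317 and 232 CPM in WT and 351, 345 and 319 CPM in Abca4KO. As for mt-Atp6 alone, all Abca4KO sums lay above all WT sums, but by little: the lowest Abca4KO sum and the highest WT sum were 319 and 317 CPM. With the copies added to their genes, an alternative chosen after seeing the data, the log2 fold change of mt-Atp6 was 0.30 at an edgeR adjusted p of 0.701. The sum of mt-Co3 and Gm28437 was 206, 232 and 166 CPM in WT and 230.3, 258 and 209 CPM in Abca4KO, and overlapped.

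The nuclear genes that run mitochondrial gene expression were followed in 5 lists with 193 genes in the table, of which 192 were tested. In edgeR none had an adjusted p under 0.05. An unadjusted p under 0.05 was reached by 4 of the 192 (7.02% of all genes). That number was 25 with sample weights in limma-voom, where 16.9% of all genes reached it, and between 1 (without Abca4KO 2) and 7 (without WT 2) with 1 library left out. Of the 192, 15 had genotypes that did not overlap, 9 higher and 6 lower in Abca4KO (12.8% of all genes did not overlap). Fold changes were positive for 123 of 192 against 47.8% of all genes, with a median log2 fold change of 0.03.

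Transcription of mitochondrial DNA needs the RNA polymerase Polrmt, the packaging and promoter factor Tfam, the promoter-melting factor Tfb2m and the elongation factor Tefm. Polrmt had means of 20.3 ± 2.06 CPM (WT) and 19.4 ± 1.65 CPM (Abca4KO), and Tfam at 35.1 ± 0.442 and 36.3 ± 3.26 CPM (SD, n = 3 each). Tfb2m was at 17.1 ± 1.86 and 18.3 ± 3.72 CPM and Tefm at 4.44 ± 1.45 and 5.25 ± 1.25 CPM (SD, n = 3 each). None of these 4 differed by more than the spread between mice. Of the 19 genes tested in this list 14 had a positive fold change, with a median log2 value of 0.13. The list's smallest p-values belonged to Pprc1, a coactivator of nuclear genes for mitochondria, at 18.2 ± 4.59 and 24.2 ± 0.636 CPM (SD, n = 3 each), and to Mterf3, a repressor of mitochondrial transcription, at 20.2 ± 1.40 and 23.7 ± 2.56 CPM (SD, n = 3 each). Next were Gabpa, a subunit of nuclear respiratory factor 2, at 58.8 ± 2.33 and 53.7 ± 2.75 CPM, and Ppargc1a, a coactivator known for driving mitochondrial biogenesis, at 53.0 ± 6.33 and 45.8 ± 7.95 CPM (SD, n = 3 each). The edgeR adjusted p-values of these 4 lay between 0.713 and 0.818. Pprc1, Mterf3 and Gabpa each overlap a gene on the opposite strand that holds many counts, so their values are uncertain.

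In the list for replication and upkeep of mitochondrial DNA, 11 of 22 tested genes had a positive fold change, and the median was 0.00. Suclg1, a succinyl-CoA ligase subunit whose loss depletes mitochondrial DNA, had means of 100.4 ± 6.41 CPM (WT) and 90.5 ± 4.20 CPM (Abca4KO), both SD with n = 3. Ssbp1, which coats single-stranded mitochondrial DNA, was at 19.8 ± 1.83 and 22.9 ± 2.08 CPM, Atad3a, a membrane protein bound to nucleoids, at 22.7 ± 2.80 and 25.9 ± 1.50 CPM, and Dguok, which supplies purine nucleotides, at 20.1 ± 1.81 and 22.6 ± 1.04 CPM (SD, n = 3 each). The genotypes overlapped in all 4.

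The list for cleavage, modification and decay of mitochondrial RNA had 23 positive fold changes among 44 tested genes, with a median of 0.01. Pnpt1, the polynucleotide phosphorylase that degrades mitochondrial RNA, was at 20.6, 22.4 and 23.5 CPM in WT and 28.5, 25.3 and 26.0 CPM in Abca4KO. All Abca4KO libraries lay above all WT libraries, at a log2 fold change of 0.26 ± 0.11 (SE), which did not pass the test (edgeR adjusted p = 0.706). Rpusd4, which modifies the large rRNA, was at 12.3 ± 1.17 and 10.4 ± 0.704 CPM, Fastk at 51.5 ± 2.64 and 55.7 ± 1.15 CPM and Tbrg4, another protein of the Fastk family, at 18.0 ± 3.86 and 21.4 ± 1.51 CPM (SD, n = 3 each). Fastk, whose mitochondrial form is needed for the mRNA of mt-Nd6, overlaps Slc4a2 on the opposite strand, and its value is uncertain. Lrpprc, which binds and stabilises mitochondrial mRNAs together with Slirp, was at 48.3 ± 3.88 and 49.5 ± 6.50 CPM, and Slirp at 1.25 ± 0.562 and 0.987 ± 0.260 CPM (SD, n = 3 each). Slirp also overlaps genes with far more counts and is uncertain.

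Mitochondrial translation factors, including the aminoacyl-tRNA synthetases that charge the tRNAs shown above, had 20 of 31 positive fold changes and a median of 0.02. The elongation factor Gfm1 had means of 28.0 ± 1.72 CPM (WT) and 24.0 ± 1.12 CPM (Abca4KO), both SD with n = 3, and an edgeR adjusted p of 0.717. Pars2, which charges mt-Tp, was at 4.65, 6.49 and 4.95 CPM in WT and 3.80, 3.92 and 3.60 CPM in Abca4KO, and Fars2, which charges the phenylalanine tRNA, at 20.5 ± 0.694 and 17.0 ± 2.24 CPM (SD, n = 3 each). The release factor Mtrf1l was at 5.05 ± 0.775 and 6.71 ± 0.520 CPM (SD, n = 3 each). The genotypes did not overlap in these 4 genes, which were named for the smallest p-values of the list, and none passed the test. Over the 31 tested genes of the list 16.1% did not overlap, against 12.8% of all genes. Gfm1 and Fars2 overlap genes on the opposite strand with counts and are uncertain. Gfm1 lies on chromosome 3, as Abca4 does, and line differences inherited with that locus were not tested.

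Mitochondrial ribosomal proteins, the protein partners of mt-Rnr1 and mt-Rnr2, had positive fold changes for 55 of 76 tested genes, with a median of 0.05. Mrpl9, of the large subunit, was at 20.6, 23.5 and 26.0 CPM in WT and 30.1, 31.4 and 30.1 CPM in Abca4KO. Mrps2, of the small subunit, was at 15.7, 16.7 and 13.1 CPM in WT and 19.0, 22.0 and 20.3 CPM in Abca4KO. Both were higher in every Abca4KO library than in any WT library, at log2 fold changes of 0.38 ± 0.11 and 0.43 ± 0.14 (SE), and neither passed the test, with edgeR adjusted p-values of 0.616 and 0.625. Mrpl46 went the other way at 12.9 ± 0.695 and 10.1 ± 0.975 CPM, and Mrpl52 was at 17.5 ± 1.78 and 21.2 ± 3.03 CPM (SD, n = 3 each). Mrpl46 overlaps Mrps11 on the opposite strand and is uncertain. Mrpl9 lies on chromosome 3, as Abca4 does, and line differences inherited with that locus were not tested. Over the 76 tested genes of the list the genotypes did not overlap in 6.58%, against 12.8% of all genes.

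Markers of the RPE and of cells that can be carried along were summed in each library. The 20 RPE markers were all tested, none was called, and their sum was 52011, 42477 and 54415 CPM in WT and 52289, 51436 and 54088 CPM in Abca4KO. WT 2, the WT library with the highest mitochondrial share, had the lowest RPE sum. The 20 rod photoreceptor markers summed to between 2197 and 3694 CPM in WT and between 2602 and 5585 CPM in Abca4KO, highest in Abca4KO 1. Melanocyte markers (7 of 7 tested) summed to between 1864 and 2342 CPM in WT and between 2655 and 4297 CPM in Abca4KO, where Abca4KO 2 was highest. Their groups did not overlap, and neither did those of the 10 fibroblast and sclera markers, at 1611 to 1892 CPM in WT and 1931 to 2381 CPM in Abca4KO, again highest in Abca4KO 2. Each gave an exact permutation p of 0.10, the smallest this design allows, not adjusted over the marker lists. A sum follows its most abundant members. Fold changes were positive for 5 of 7 melanocyte and 8 of 10 fibroblast and sclera markers, against 47.8% of all genes. Of the 7 melanocyte markers 2 were higher and 1 was lower in every Abca4KO library than in any WT library (12.8% of all genes did not overlap). Erythrocyte markers (6 of 6 tested) summed to between 1116 and 1778 CPM in WT and between 1091 and 2566 CPM in Abca4KO, also highest in Abca4KO 2. The 15 endothelial markers, all tested, summed to between 503 and 829 CPM in WT and between 821 and 1221 CPM in Abca4KO. All 15 had positive fold changes (47.8% of all genes did), and 9 of 15 had an unadjusted p under 0.05 (7.02% of all genes did), but none passed the test. Macrophage (14 of 14 tested), Muller glia (9 of 9), muscle (9 of 10) and cone (9 of 10) sums overlapped between the genotypes. Fold changes were positive for 9 of 14 macrophage, 2 of 9 Muller glia, 7 of 9 muscle and 8 of 9 cone markers tested. Rlbp1, at 2550 to 3509 CPM, is in both the RPE and the Muller glia lists, so these 2 sums are not separate. No marker of these lists was at 0 in all libraries, and none passed the test. The part of these cells in the mitochondrial values, Abca4KO 2 included, was not tested.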

How the data were processed

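RNA of the RPE was sequenced from 3 WT and 3 Abca4KO mice. The authors deposited a table of whole-number read counts for each gene, without normalization. STAR, HTSeq and the build mm10 are named, without versions, per the submitters' processing notes. The annotation release, strand use and treatment of reads that match several genes are not stated there. Coordinates are those of the deposited table. Per the labels' protocols, the RNAqueous-Micro kit gave the RNA and the NEBNext Ultra RNA kit the libraries.

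In R 4.3.3, edgeR 4.0.16 kept 17340 genes by filterByExpr (minimum count 10). All were fitted together over the 6 libraries with TMM scaling, and genotypes were compared by the 2-sided quasi-likelihood test with Benjamini-Hochberg adjustment and a threshold of 0.05. Fold changes are Abca4KO over WT on the log2 scale, and their standard error (SE) is the fold change divided by the root of the F statistic. Shares were compared by a 2-sided exact permutation test. Nuclear copies were sought with BLAST 2.17.0 among GENCODE M21 transcripts, at 90% identity over at least 50 bases, and called near-identical from 99%. The fit was run on simulated counts, with the same relative variability for all genes and known changes in nuclear genes only. A spread between mice shared by the mitochondrial genes was not simulated, so that run does not bear on them.

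The mitochondrial genes and all gene lists were chosen with earlier results of these data known. All mitochondrial rows are accounted for, with every rRNA, mRNA and tested tRNA named. From each nuclear list the 4 smallest p-values were named, and always Polrmt, Tfam, Tefm, Tfb2m, Lrpprc, Slirp and Ppargc1a. Other settings were other size factors, filters, DESeq2 1.42.0, limma 3.58.1 (voom with sample weights), scaling to the mitochondrial total, the replicate number as a block and each library left out. Adding the nuclear copies, and leaving out WT 2 and Abca4KO 1 together, were chosen after seeing the data.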

Additional observations from a re-analysis of the deposited data

How the results depend on the processing

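No mitochondrially encoded gene passed the threshold under any of the 17 other settings, where between 0 and 3 had an unadjusted p under 0.05, and none of the nuclear genes of the 5 lists did under the 14 settings run for them. With 3 mice per genotype and SEs near 0.2 for the abundant mRNAs, small differences were not detectable. Over all genes 8 passed, against 103 with DESeq2, 31 with limma-voom, 19 without a filter, 115 with scaling to the mitochondrial total, 190 without WT 2 and Abca4KO 1, and 3 (without Abca4KO 2 or 3) to 11 (without WT 2) when 1 library was left out. Some log2 fold changes reversed. With scaling to the mitochondrial total these were mt-Rnr2 -0.055, mt-Co1 -0.010, mt-Co2 -0.053, mt-Nd5 -0.102 and mt-Tp -0.068. With limma-voom they were mt-Rnr2 -0.047, mt-Tl1 -0.015, mt-Nd1 -0.005, mt-Tn 0.129, mt-Co1 -0.046, mt-Nd4l -0.079, mt-Ts2 -0.070, mt-Nd5 -0.181, mt-Nd6 -0.013, mt-Te -0.132, mt-Cytb -0.056, mt-Tp -0.068, Polrmt 0.049, Tfam -0.025 and Slirp 0.409. Without WT 2 and Abca4KO 1 they were mt-Tl1 -0.167, mt-Tn 0.390, mt-Tc 0.037, mt-Atp8 -0.307 and mt-Th 0.148, and with the nuclear copies added mt-Nd3 0.005. The causes were not tested.

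Same-numbered mice were not paired by the labels, and over 17340 genes their deviations correlated at 0.242, 0.399 and -0.109. Between mice of unlike number the values ran from -0.429 (WT 2 with Abca4KO 1) to 0.369 (WT 3 with Abca4KO 1). With the replicate block 0 of the 25 genes passed (9 over all genes), and mt-Tn (0.015) and mt-Nd5 (-0.005) reversed. The difference in mitochondrial share, 0.5459 percentage points, cannot change under this block, since each replicate number holds 1 mouse of each genotype.

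With each library left out in turn, the difference in mitochondrial share ranged from -0.1455 to 1.261 percentage points. Of the shares within the mitochondrial counts, that of complex III ranged from -0.1982 to 0.2196, of complex IV from -0.4132 to 0.1201 and of the rRNAs from -0.153 to 0.05614 percentage points. The log2 fold changes that crossed 0 ranged from -0.105 to 0.357 for mt-Rnr1, -0.199 to 0.237 for mt-Rnr2, -0.110 to 0.458 for mt-Tl1, -0.037 to 0.254 for mt-Nd1, -0.531 to 0.108 for mt-Tw, -0.259 to 0.348 for mt-Tn, -0.301 to 0.134 for mt-Tc, -0.059 to 0.227 for mt-Co1, -0.141 to 0.541 for mt-Atp8, -0.212 to 0.040 for mt-Nd3 and -0.040 to 0.309 for mt-Nd4l. They ranged from -0.157 to 0.519 for mt-Ts2, -0.144 to 0.165 for mt-Nd5, -0.013 to 0.297 for mt-Nd6, -0.036 to 0.241 for mt-Cytb, -0.172 to 0.218 for mt-Tp, -0.144 to 0.003 for Polrmt, -0.004 to 0.119 for Tfam and -0.068 to 0.121 for Lrpprc.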

Other observations

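Further nuclear stretches resembled the mitochondrial genes less closely and held few counts. Gm13340 on chromosome 2 aligned to the whole of mt-Co1 at 97.6% identity and had 1009 counts over the 6 libraries, 0.0349% of the count of mt-Co1. Gm13341, at 95.9% identity to mt-Co2, had 73 counts, and Gm13339, at 96.7% identity to part of mt-Nd2, had 53. The others in the table had at most 9 counts each. No annotated nuclear transcript met the search limits for mt-Nd1, mt-Atp8, the 2 rRNAs or any tRNA.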
